A study of Homo sapiens with 1 sample.

Results

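In this library, 189 of the 14726 cell barcodes (1.28%, exact binomial interval 1.11 to 1.48%) had between 2000 and 10000 detected genes and less than 1% of their unique molecular identifiers (UMIs, each counting 1 captured RNA molecule) from the 13 genes of the mitochondrial genome whose symbols start with MT-. These cells are described here, and they were chosen for that low mitochondrial share, so the share itself is no result. The library was made from H9 cells, a widely used human embryonic stem cell line, of the genotype WT, in which the enhancer HAR123 has its human form (hHAR123). Following the study's methods, independent clones were pooled, and the cells were collected after differentiation towards neural progenitor cells (NPCs), just before rosette selection. They had been dissociated with Accutase and passed through a kit that removes dead cells. There was 1 library and no replicate, so no test was run, and every interval covers counting error only.

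The members were set beside 1497 comparison cells of the same library, which had the same range of detected genes, a mitochondrial share from 1% to below 10% and at least 5 UMIs per 10000 from ANXA1, TFPI2 and CTGF together. These 3 genes are called the rule genes. Among the members, 87 reached 5 rule-gene UMIs per 10000 and are called rule-gene-positive, and 102 did not and are called rule-gene-negative. Because the members were a mixture in this respect, the positive members were also compared with the comparison cells, and the negative members with the 12239 other kept cells, which had a mitochondrial share from 1% to below 10% and fewer rule-gene UMIs. A level is what a gene contributes to each 1000000 UMIs pooled over a group (CPM), and a ratio divides 2 such levels. The rule genes together stood at 798 CPM in the members and 2279 CPM in the comparison cells, which were chosen by them. Members that resemble the comparison cells but hold fewer rule-gene UMIs are counted as negative. Cell kind and the level of the rule genes could thus not be told apart in this split.

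Messenger RNAs (mRNAs) do not all lie in the same place in a cell. Some long noncoding RNAs stay in the nucleus, and mRNAs of secreted and membrane proteins are translated on the endoplasmic reticulum (ER), to which a hydrophobic stretch of the growing protein directs the ribosome. The mRNAs of cytosolic and ribosomal proteins are mostly translated on free ribosomes. RNAs of the mitochondrial genome stay inside the mitochondria, whereas most proteins of the respiratory chain are encoded in the nucleus and their mRNAs are translated outside the mitochondria.

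The coding sequences of a few genes show the feature by which genes are later grouped. They are printed with the codons that have T as their second base in capitals, which encode the hydrophobic amino acids phenylalanine, leucine, isoleucine, methionine and valine. All are from GENCODE version 44 on GRCh38, 5′ to 3′ on the coding strand and with introns left out. HSPA5 (the main chaperone of the ER lumen, chr9:125241037-125241126, minus strand) and CALR (a calcium-binding chaperone of the ER, chr19:12938680-12938769, plus strand) are shown for levels below those of the comparison cells. Each has 7 such codons within 10 consecutive codons near its start, which encode the signal sequence.
HSPA5, codons 1 to 30: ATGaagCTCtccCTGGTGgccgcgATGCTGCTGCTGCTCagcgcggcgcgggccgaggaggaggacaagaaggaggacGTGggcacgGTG
CALR, codons 1 to 30: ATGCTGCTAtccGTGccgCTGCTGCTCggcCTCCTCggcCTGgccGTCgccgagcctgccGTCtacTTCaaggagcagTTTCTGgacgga

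FTL (the light chain of the iron store ferritin, chr19:48965508-48965597, plus strand), S100A11 (a cytosolic calcium-binding protein, chr1:152033714-152036915, minus strand) and TMSB4X (a small actin-binding protein, chrX:12976262-12976351, plus strand) are shown for levels above those of the comparison cells. They have 5, 5 and 3 such codons at most within 10.
FTL, codons 1 to 30: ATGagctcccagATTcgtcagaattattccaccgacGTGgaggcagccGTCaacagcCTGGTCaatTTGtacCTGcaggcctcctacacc
S100A11, codons 1 to 30: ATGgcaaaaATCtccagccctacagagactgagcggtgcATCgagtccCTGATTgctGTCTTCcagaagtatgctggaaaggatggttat
TMSB4X, codons 1 to 30: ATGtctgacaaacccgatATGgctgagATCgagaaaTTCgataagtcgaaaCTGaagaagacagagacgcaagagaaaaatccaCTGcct

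SEC61B (chr9:99227996-99230421, plus strand) and SEC61G (chr7:54752414-54755861, minus strand) encode small subunits of the ER protein channel and are shown because their levels lay apart from those of most ER proteins. Both proteins are anchored in the membrane by a single hydrophobic stretch close to their end. The last 30 codons before the stop hold 15 codons with a second T in SEC61B and 16 in SEC61G.
SEC61B, last 30 codons: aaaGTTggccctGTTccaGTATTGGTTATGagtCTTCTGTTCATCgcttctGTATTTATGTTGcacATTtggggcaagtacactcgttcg
SEC61G, last 30 codons: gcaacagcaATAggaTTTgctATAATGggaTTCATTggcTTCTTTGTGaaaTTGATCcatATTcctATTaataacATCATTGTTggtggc

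The members were shallow cells. Their UMIs ran from 3550 to 22626 with a median of 9536, against a median of 48483 in the comparison cells and 16983 in the other kept cells. They had a median of 3097 detected genes, against 7970 and 5427. Positive and negative members had about the same depth, with medians of 9552 and 9444 UMIs. Together the members held 1869491 UMIs, 0.594% of those of all kept cells.

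The values that chose the members were as follows. The median mitochondrial share was 0.154% in the members (lowest 0.00742%, highest 0.993%), 5.20% in the comparison cells and 5.18% in the other kept cells. Few cells lay near the limit: 10 members were between 0.8 and 1%, and 9 cells outside were between 1 and 1.2%. The highest members had 0.993 and 0.992%, and the lowest cells outside had 1.01 and 1.05%. A mitochondrial share under 0.1% was found in 76 members, from 0.1 to 0.5% in 79 and from 0.5 to 1% in 34. There were 40 cells from 1 to 2%, 308 from 2 to 3% and 5752 from 3 to 5%. The positive members had a lower median share (0.102%) than the negative members (0.253%). Within the mitochondrial UMIs that were left, the mixture of genes was close to that of the other groups. MT-CO3, a subunit of cytochrome c oxidase, made up 21.1% of the mitochondrial UMIs in the members, 19.5% in the comparison cells and 21.0% in the other kept cells. MT-ATP6, a subunit of ATP synthase, made up 15.8, 17.8 and 16.2%. Levels of the 13 genes in members over comparison cells lay between 0.037 and 0.075.

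**Figure D1:**
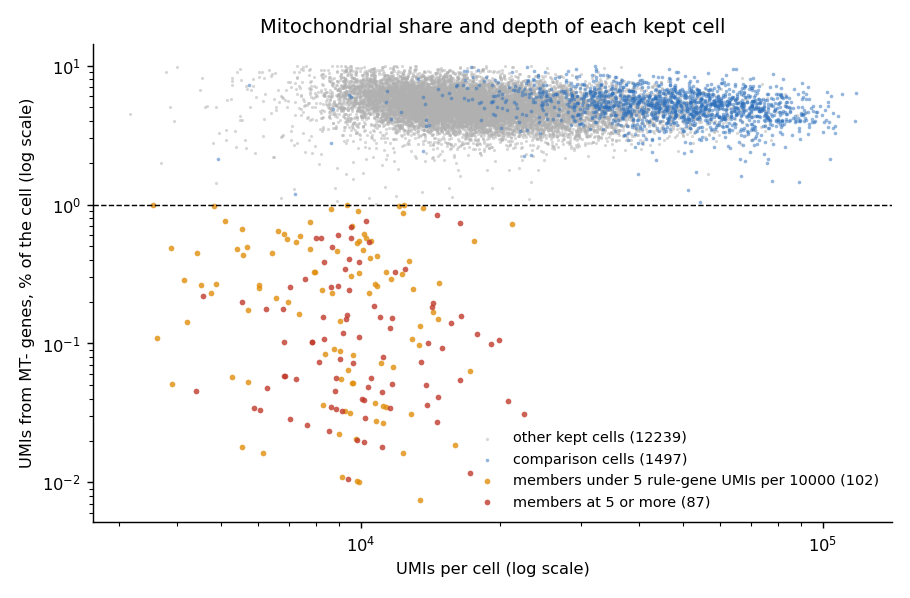
Share of UMIs from MT- genes (vertical axis, %, log scale) against UMIs per cell (horizontal axis, log scale) for each kept cell, with the 1% limit dashed. The 189 members lie below the limit and at no more than 22626 UMIs, while the comparison cells have a median of 48483 UMIs.

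The 5 genes taken as markers of these cells, with earlier results of these data known, were S100A10 and S100A11 (S100 proteins that bind annexins), S100A6 (a further S100 protein), MT2A (a metal-binding metallothionein) and FTL. All were above the other kept cells in the pooled members, but they were also high in the comparison cells. S100A10 stood at 308 CPM in the members, 283 CPM in the comparison cells and 3.77 CPM in the other kept cells. Its ratio of members over comparison cells was 1.09 (0.998 to 1.18), and that of positive members over comparison cells was 2.11. S100A11 stood at 668, 576 and 33.8 CPM, a ratio of 1.16 (1.10 to 1.23) for all members and 2.15 for the positive ones. S100A6 had corresponding ratios of 1.21 (1.11 to 1.32) and 2.17. FTL, at 7905 CPM in the members and 5856 CPM in the comparison cells, had ratios of 1.35 (1.33 to 1.37) and 2.07. MT2A was low, at 36.4, 16.7 and 5.00 CPM, and rested on 68 UMIs in the members, with a ratio of 2.18 (1.68 to 2.78) for all members and 3.77 for the positive ones. For each of the 5 genes, most of the members' UMIs came from the positive members, which held 552 of the 575 S100A10 UMIs. The negative members had S100A10 at 24.3 CPM and S100A11 at 111 CPM, 6.44 (4.06 to 9.72) and 3.28 (2.68 to 3.97) times the other kept cells. S100A6, FTL and MT2A stood at 2.18, 2.57 and 2.11 times in the same comparison, MT2A on 10 UMIs. None of the 8 other metallothionein genes listed reached 20 CPM in either group. The S100A10, S100A11 and S100A6 ratios for all members passed below 1 when the mitochondrial limit was set to 0.02, at 0.900, 0.917 and 0.932. With comparison cells at 10 or more rule-gene UMIs per 10000, S100A10 was at 0.968. Against the 81 comparison cells no deeper than the deepest member, the ratios were instead 6.05 (S100A10), 2.26 (S100A11), 2.95 (S100A6), 5.15 (MT2A) and 2.49 (FTL). These 81 cells thus had lower levels of the 5 genes than the comparison cells as a whole.

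Cells differed widely in these genes. FTL ranged from 0 to 469 UMIs per 10000 among the members, with a median of 45.9 (quartiles 19.3 and 93.5), and the comparison cells had a median of 42.3 (23.8 and 73.6). S100A11 had a median of 1.38 (0 and 7.96) in the members and 3.72 (1.18 and 8.15) in the comparison cells. The ranges of members and comparison cells thus overlapped for both genes.

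The members were also not of a single kind by other markers. Genes of contractile cells, such as TAGLN (an actin-binding protein of smooth muscle), were present at 4393 CPM in the members, 4572 CPM in the comparison cells and 435 CPM in the other kept cells. The negative members had TAGLN at 5.48 times the level of the other kept cells, and the contractile list as a whole at 4.90 times (4.73 to 5.08), with 6 of 7 measured genes at least 2-fold higher, against 2.46% of all 8090 genes measured in that comparison. Ratios between these 2 groups, here and below, can thus also carry a difference in cell kind, which could not be told apart. Genes of forebrain progenitors were present too: FABP7 (a fatty acid-binding protein of radial glia) stood at 184, 50.6 and 486 CPM in members, comparison cells and other kept cells. Of 11 measured genes on that list, 9 were above 1 in members over comparison cells, but NES, the intermediate filament protein nestin, stood at 236 and 670 CPM, a ratio of 0.35, and the summed ratio was 0.961 (0.923 to 1.00). It was 0.550 in the positive members and, over the other kept cells, 0.705 in the negative members. The transcription factors HES5 and SOX1 were at 3.23 (2.45 to 4.19) and 3.12 (2.25 to 4.23) times the level of the comparison cells in all members. In the positive members these ratios were 0.42 and 0.98, and in the negative members over other kept cells they were 0.34 and 0.67. Lists of cardiac, mesenchyme or neural crest, and endothelial or blood genes were near 0, with none of their 10, 9 and 8 genes at 20 CPM in members or comparison cells. Background RNA was not estimated, so a low pooled level of a marker need not come from the members themselves.

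In a neighbour graph built without the MT- genes and the rule genes, 73.2% of the 20 nearest neighbours of a member were members, which made up 1.36% of the kept cells. Another 23.6% were other kept cells and 3.25% were comparison cells. Clustering of that graph put 152 members (80.4%) into a cluster of 173 cells, and 24 more into a cluster of 1313 cells. Genes of these cells formed the graph, so this describes the members and is no test.

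Relative to all UMIs, nuclear RNAs and transcripts for secreted, ER and membrane proteins were lower in the members than in the comparison cells. Transcripts for cytosolic, ribosomal and respiratory chain proteins were higher. These lists also differ in gene length, which went with the ratios as given below. The comparison cells were themselves above the other kept cells in the classes that were lower. Nuclear RNA stood at 14615 against 10545 CPM and secreted genes at 7811 against 4626 CPM. ER genes stood at 6737 against 4494 CPM and plasma membrane genes at 5179 against 2947 CPM. Ratios of all members, which include the negative ones, can thus also carry a difference in cell kind, as can those of single genes below. Among 7520 genes with at least 20 CPM in either group, 1508 (20.1%) were at least 2-fold lower in the members. Another 123 (1.64%) were at least 2-fold higher. The median ratio was 0.89, so more genes lay below 1 than above it. Genes under 20 CPM in 1 group entered only through the other group, where they were higher. With a mitochondrial limit of 0.02, 563 of 7561 genes were at least 2-fold lower, and against the 81 shallower comparison cells 248 of 7588 were at least 2-fold higher. For the positive members 29.2% of 7431 genes were at least 2-fold lower and 0.942% at least 2-fold higher, with a median ratio of 0.81. For the negative members over the other kept cells 21.5% of 8090 were at least 2-fold lower, with a median ratio of 0.85. These are shares of UMIs. Per cell, each of the 7520 genes had fewer UMIs in the members than in the comparison cells, since the mean member had 0.195 times the UMIs.

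**Figure D2:**
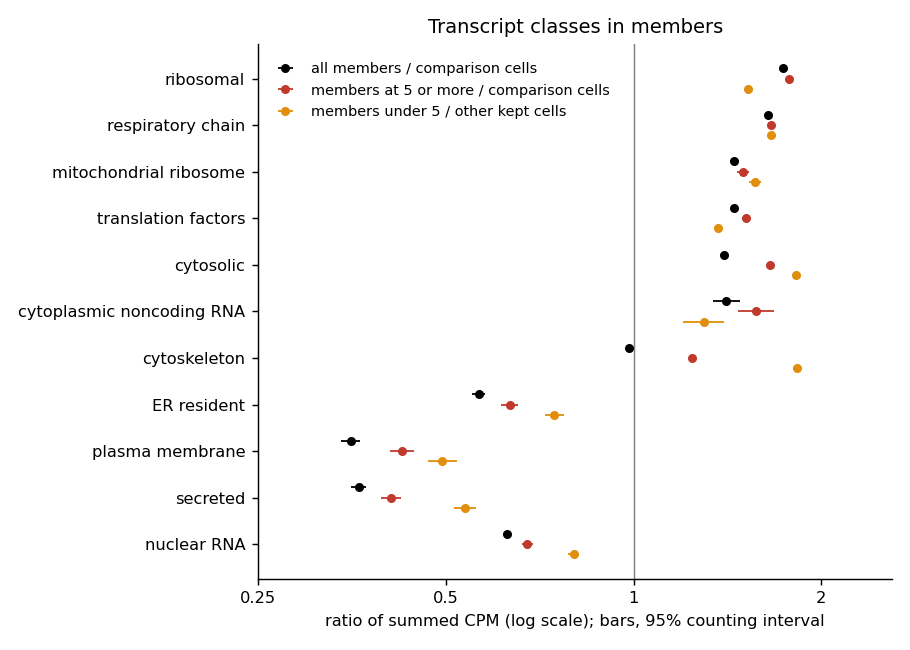
Ratio of summed CPM (horizontal axis, log scale) for 11 transcript classes, with 95% counting intervals; black, all members over comparison cells; red, rule-gene-positive members over comparison cells; orange, rule-gene-negative members over other kept cells. Nuclear RNA, secreted, ER and plasma membrane classes lie below 1 in all 3 comparisons, and the ribosomal, respiratory chain and cytosolic classes lie above 1.

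Of the 12 listed nuclear RNAs, 8 were in the table, and 5 reached 20 CPM in members or comparison cells. Their summed level was 0.626 (0.617 to 0.636) of that of the comparison cells, 0.675 in the positive members and, against the other kept cells, 0.801 in the negative members. NEAT1, the RNA scaffold of paraspeckles, stood at 73.8 CPM in the members and 1065 CPM in the comparison cells, a ratio of 0.069 (0.058 to 0.082), which became 0.244 with a mitochondrial limit of 0.02 and 0.144 against the 81 shallower comparison cells. Its level was 89.3 CPM in the other kept cells, and the ratio of the negative members to these was 0.33. KCNQ1OT1, an antisense RNA that silences an imprinted cluster, was at 6.95 and 45.9 CPM, a ratio of 0.15 (0.081 to 0.26) on 13 UMIs. FIRRE, an X-linked chromatin-associated RNA, was at 43.9 and 101 CPM, and its ratio to the comparison cells was 0.43. MALAT1, the most abundant of the list and a nuclear speckle RNA, stood at 8947 CPM in the members and 13055 CPM in the comparison cells, a ratio of 0.685 (0.67 to 0.70). Without MALAT1, the list stood at 0.131 (0.118 to 0.145), and the same figures for the positive and negative members were 0.136 and 0.313.

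MALAT1 was nearly missing from some members. It made up a median of 0.883% of a member's UMIs, from 0 to 7.83%, and 1.21% of a comparison cell's. In 20 of the 189 members (10.6%, 6.58 to 15.9%) it was under 0.1%, against 3 of 1497 comparison cells (0.200%, 0.0413 to 0.585%) and 4 of 12239 other kept cells. These 20 cells included 7 positive and 13 negative members.

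The length of a gene went with its ratio. Genes were sorted by the distance from start to end of the gene in the genome. The counts do not separate spliced from unspliced RNA, so the level of a gene may hold both. The median ratio was 1.44 for 520 genes of up to 5 kb, 1.29 for 1588 genes of 5 to 20 kb, 1.03 for 1886 genes of 20 to 50 kb and 0.80 for 1436 genes of 50 to 100 kb. It was 0.61 for 1149 genes of 100 to 200 kb, 0.47 for 723 genes of 200 to 500 kb and 0.27 for 210 genes above 500 kb. The order was the same in the positive members, from 1.46 to 0.14, and in the negative members over other kept cells, from 1.51 to 0.29. Of the genes above 500 kb, 84.3% were at least 2-fold lower in the members, against 3.65% of those up to 5 kb. The length of the longest annotated transcript went with the ratio too, with medians from 1.55 over 257 genes of up to 1000 bases to 0.54 over 500 genes above 10000 bases. With transcripts of 1500 to 3000 bases, the median was 1.32 for genes of up to 20 kb and 0.68 above 100 kb, and with longer transcripts it was 1.14 and 0.52.

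Genes over 100 kb made up a median of 10.1% of a member's UMIs (quartiles 8.26 and 14.2), 22.6% of a comparison cell's (19.9 and 25.6) and 25.5% of an other kept cell's (22.4 and 28.9). The 10th percentile of the comparison cells was 17.8%, and 166 of the 189 members (87.8%) lay below it, as did all 87 positive members. There were 13 members with a share at or above the comparison cells' median, and all of them were rule-gene-negative. Their median mitochondrial share was 0.650%, above the 0.154% of all members, and their ribosomal and cytosolic shares had medians of 15.5 and 2.37%, against 15.5 and 2.23% in the other kept cells.

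Over all members, the share of genes over 100 kb was lower where the mitochondrial share was lower. It had a median of 8.61% below a mitochondrial share of 0.1%, of 11.2% from 0.1 to 0.5% and of 14.7% from 0.5 to 1%, while the 40 cells from 1 to 2% had a median of 24.4%. The ribosomal share had medians of 24.5, 22.8, 21.3 and 15.6% over the same steps, and the share of the cytosolic list 5.67, 4.94, 3.33 and 2.52%. Across the 189 members, which share a library and differ in depth, the long-gene share had a Spearman correlation of -0.800 with the cytosolic share, which is a part of the same total, and of -0.191 with the UMIs. Positive members made up 42 of the 76 cells below 0.1%, 36 of the 79 from 0.1 to 0.5% and 9 of the 34 from 0.5 to 1%, and the kinds differed. In the positive members the long-gene share had medians of 8.64, 9.49 and 9.11% over these 3 steps and the cytosolic share 6.28, 5.90 and 6.23%, which were nearly level. In the negative members the long-gene medians were 8.52, 13.3 and 18.4% and the cytosolic medians 4.89, 3.81 and 2.79%. Of the 13 members named above for a high long-gene share, 10 were among the 25 negative members of the last step and 3 in the step before. Without these 13, whose removal lowers the long-gene medians by construction, the long-gene medians were 8.52, 13.1 and 14.2% and the cytosolic medians 4.89, 3.82 and 3.41%.

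**Figure D3:**
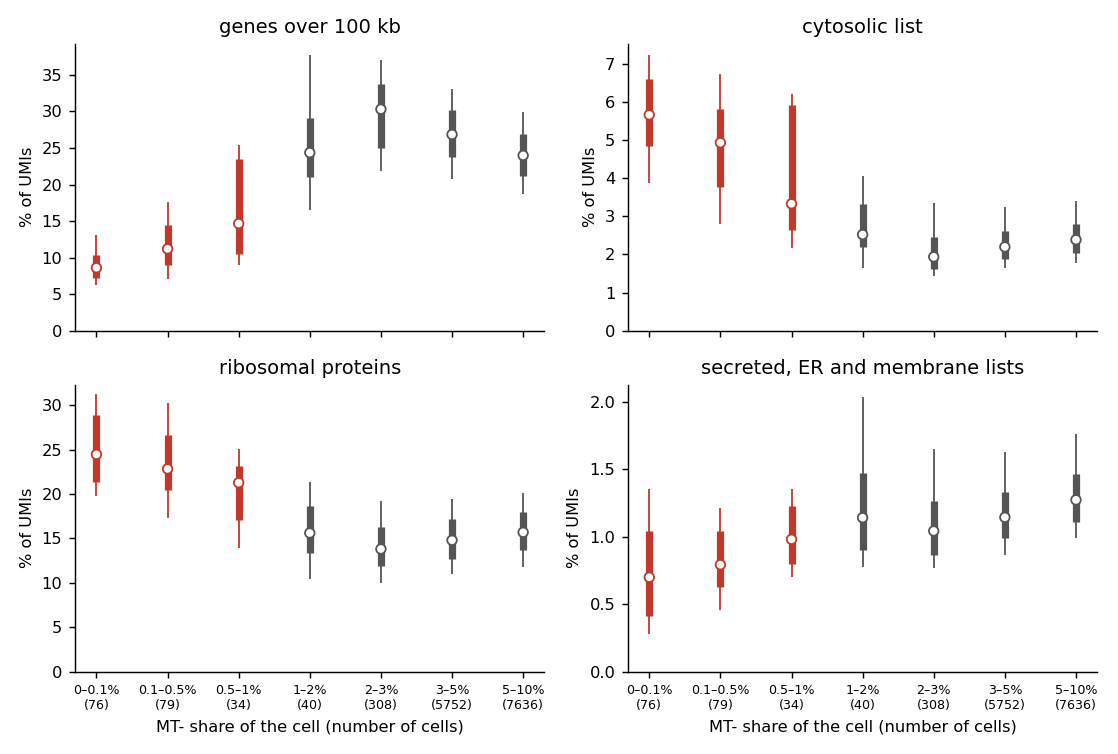
Share of UMIs (vertical axes, %) in cells grouped by mitochondrial share (horizontal axis, number of cells in brackets); circles, medians; thick bars, quartiles; thin bars, 10th to 90th percentiles; red, members. The long-gene median lies at 8.61% below a mitochondrial share of 0.1% and at 24.4% from 1 to 2%.

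Transcripts for secreted proteins were among the lowest. Of 39 listed genes, 34 were measured. Those under 20 CPM in the members counted as measured only through the comparison cells, where they were higher, which adds to the counts of lower genes. Of the 34 measured genes, 33 were below 1 and 27 were at least 2-fold lower, against 20.1% of all genes. Their median ratio was 0.20 against 0.89 over all genes. Many of them are long genes: 17 span over 50 kb, with a median of 0.17, and 12 span up to 20 kb, with 0.32. In the positive members these 2 medians were 0.23 and 0.60. The summed level was 2832 CPM in the members and 7811 CPM in the comparison cells, a ratio of 0.363 (0.353 to 0.373). It was 0.408 in the positive members, and the negative members stood at 0.537 against the other kept cells. FN1, the matrix protein fibronectin, was at 17.7 CPM in the members and 161 CPM in the comparison cells, a ratio of 0.11. SPARC, a collagen-binding matrix protein, was at 86.1 and 335 CPM, a ratio of 0.26. MDK, a secreted growth factor, was the exception for all members, with 692 and 671 CPM and a ratio of 1.03 (0.97 to 1.09). In the negative members over the other kept cells 3 of 20 measured genes were above 1 and 8 at least 2-fold lower, against 21.5% of all genes. NPPB stood there at 7.78 (5.22 to 11.2) on 30 UMIs, and the 6 measured genes of up to 20 kb had a median of 0.90.

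Transcripts for most proteins of the ER were lower in the members as well, though less so. The summed ratio of the 26 listed genes was 0.565 (0.552 to 0.578), with 14 at least 2-fold lower, against 20.1% of all genes, and 3 above 1. The 13 genes of up to 20 kb had a median ratio of 0.66, the 8 of 20 to 50 kb 0.29 and the 5 above 50 kb 0.41. In the positive members these medians were 0.87, 0.29 and 0.46. They were 0.83, 0.52 and 0.52 in the negative members over the other kept cells. HSPA5 stood at 70.6 CPM against 390 CPM, a ratio of 0.18 (0.15 to 0.21), or 0.399 with a mitochondrial limit of 0.02. It was 0.16 in the positive members and 0.38 in the negative members over the other kept cells. A member had a median of 0 HSPA5 UMIs per 10000 (highest 10.4) and a comparison cell 3.61 (lowest 0, highest 14.4), so the ranges overlapped. HSP90B1, another ER chaperone, was at 172 and 663 CPM, a ratio of 0.26, and CALR at 243 and 614 CPM, a ratio of 0.40. The 3 exceptions were SPCS1, a subunit of the signal peptidase (1.07), SEC61B (1.34, 1.26 to 1.42) and SEC61G (1.43, 1.34 to 1.53). SEC61A1, the large subunit of the same channel, was at 0.24 (0.16 to 0.33). The same 2 channel subunits stood at 1.86 and 1.98 in the negative members over the other kept cells, and SEC61A1 at 0.52.

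All 16 measured plasma membrane genes were below 1, and 13 were at least 2-fold lower, against 20.1% of all genes. Their summed ratio was 0.352 (0.340 to 0.364), and it was 0.425 in the positive members. Only 2 of the 16 genes span up to 20 kb, with a median of 0.50, and 7 span over 50 kb, with 0.25. In the positive members these 2 medians were 0.56 and 0.20. ITGB1, the common integrin chain, stood at 195 CPM in the members and 782 CPM in the comparison cells, a ratio of 0.25. CDH2, a neural cadherin, was at 220 and 958 CPM, a ratio of 0.23. CAV1, which coats membrane pits, was at 0.71 in all members but at 1.32 in the positive members. In the negative members over the other kept cells the list stood at 0.494. There 10 of 15 measured genes were at least 2-fold lower, against 21.5% of all genes, and 1 was above 1, at 5.97.

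Coding sequences of a complete kind were found for 7317 of the 7520 measured genes. A gene was called as having a run if 7 or more of 10 consecutive codons within codons 2 to 30, or 13 or more of 20 consecutive later codons, had a second T, and as having no run below 6 and 12; the genes between were left out. The limits were set on the secreted, ER, membrane, cytosolic and cytoskeleton lists, in which 22 of 38, 17 of 26, 15 of 18, 0 of 33 and 0 of 19 genes had a run. Genes of these lists stayed among those compared, so they add to the differences that follow. The median ratio was 0.52 over 1200 genes with a run and 1.01 over 5103 genes without. Both classes also differ in gene length, so they were compared within length ranges. Transcript length, which also went with the ratio, was not matched between them. Among genes of up to 20 kb, the median was 0.77 over 279 genes with a run and 1.38 over 1547 without, and among those above 50 kb it was 0.42 over 655 and 0.70 over 2226. The difference was smaller at limits of 6 and 12 with no genes left out between, which were looked at first. They gave a run to 33 of 38 secreted, 26 of 26 ER, 18 of 18 membrane, 3 of 33 cytosolic and 1 of 19 cytoskeleton genes. The median over genes with a run was then 0.62 for all 2214 and 1.01 for the 507 of up to 20 kb. The genes without a run were the same 5103 at both limits.

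SEC61B and SEC61G belong to a class of genes whose only run lies in the last 35 codons. This class held 55 measured genes, of which 18 span up to 20 kb, and those had a median ratio of 1.50. The other 261 genes with a run and up to 20 kb had a median of 0.75. In the positive members the 2 medians were 1.51 and 0.79, and in the negative members over other kept cells 1.67 and 0.83. The class was set apart after the values of SEC61B and SEC61G had been seen, and transcript length was not matched here either.

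**Figure D4:**
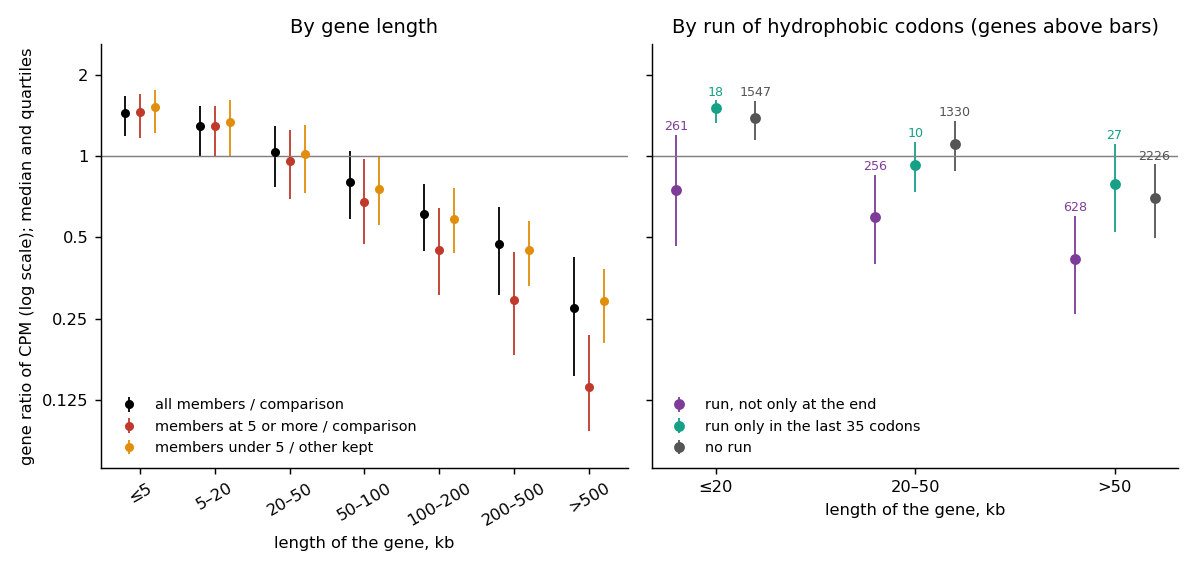
Ratio of CPM (vertical axis, log scale; circles, medians over genes; bars, quartiles) by the length of the gene (horizontal axes, kb), on the left for all members (black), rule-gene-positive members (red) and rule-gene-negative members (orange), on the right by runs of hydrophobic codons, with the number of genes above each bar. Medians pass from 1.44 to 0.27 with length on the left, and on the right genes up to 20 kb with a run only in the last 35 codons lie at 1.50, the other genes with a run at 0.75 and genes without at 1.38.

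Transcripts for cytosolic proteins were higher as a share of UMIs. Of 31 measured genes on the list 28 were above 1, and 1 (STMN1, a tubulin-binding protein) was at least 2-fold higher, against 1.64% of all genes. The summed level was 51260 CPM in the members and 36678 CPM in the comparison cells, a ratio of 1.40 (1.39 to 1.41), and the positive members stood at 1.65. Most of the measured genes are short: 19 span up to 20 kb, with a median of 1.45, and 5 span over 50 kb, with 1.43. TMSB4X was at 12842 and 9740 CPM, a ratio of 1.32 (1.30 to 1.34). GAPDH, an enzyme of glycolysis, was at 2430 and 1407 CPM, a ratio of 1.73 (1.68 to 1.78). FTH1, the heavy chain of ferritin, was at 4914 and 3218 CPM, a ratio of 1.53.

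Genes of ribosomal proteins made up 23.5% of the UMIs in the members and 13.6% in the comparison cells, a ratio of 1.73 (1.73 to 1.74). Of 83 measured genes 82 were above 1. RPL31, a protein of the large subunit, was the highest at 2.46 (2.37 to 2.56), with 1428 and 580 CPM, and RPL7L1 the lowest at 0.98. The ribosomal share ranged from 0.565 to 40.7% among members. Translation factors such as EEF1B2, an elongation factor subunit (1.62), had a summed ratio of 1.45 (1.43 to 1.46).

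The low level of the mitochondrial genome was fixed by the choice of members, so no list is set against it here. Nuclear-encoded genes of the respiratory chain were higher as a share of UMIs. Their summed level was 28099 CPM in the members and 17078 CPM in the comparison cells, a ratio of 1.65 (1.63 to 1.66), with 76 of 80 measured genes above 1. In the negative members over the other kept cells it was 1.66. NDUFA3, a subunit of complex I, had a ratio of 2.22 and NDUFS1, another, 0.86. Genes that encode proteins of the mitochondrial ribosome stood at 1.45 (1.43 to 1.47). Genes that copy, transcribe and process mitochondrial DNA and its RNAs were divided, with 5 of 9 measured genes above 1 and 4 below and a summed ratio of 1.32 (1.27 to 1.38). Their median ratio was 1.14, against 0.89 over all genes. Among positive members 3 of 8 were above 1 and 3 at least 2-fold lower, against 29.2% of all genes, with a median ratio of 0.84, and in the negative members over the other kept cells 5 of 10 were above 1. LRPPRC, which stabilizes mitochondrial mRNAs, stood at 0.67 in all members and 0.44 in the positive members. TFAM, which packages mitochondrial DNA, was at 150 and 105 CPM, a ratio of 1.42 (1.26 to 1.60), and POLRMT, the mitochondrial RNA polymerase, was below 20 CPM in both groups.

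The cytoskeleton list gave a summed ratio of 0.983 (0.975 to 0.991) that hid differences between its genes. FLNA, an actin crosslinker, stood at 0.21 (0.17 to 0.25), and the actin-bundling ACTN4 and ACTN1 at 0.38 and 0.39. The latter pair stood at 0.51 and 0.54 in the positive members, and in the negative members over the other kept cells at 0.85 (0.69 to 1.04) and 1.14 (0.96 to 1.35). TUBA1B, an alpha tubulin, was at 1.61 (1.56 to 1.66). In the positive members the list was at 1.24 and in the negative members over the other kept cells at 1.83. It stood at 31678 CPM in the comparison cells and at 12657 CPM in the other kept cells. Ratios of the negative members in this paragraph can thus also carry a difference in cell kind. Lists of stress genes differed. Their summed ratios in all members, in the positive members and in the negative members over the other kept cells were 1.32, 1.44 and 1.58 for heat shock genes, 0.950, 1.18 and 1.30 for the integrated stress response and 1.01, 1.23 and 1.28 for targets of p53. HSPB1, a small heat shock protein, was at 162 and 82.7 CPM, a ratio of 1.96 (1.74 to 2.20), DDIT3, which is induced by ER stress, was at 0.94 (0.69 to 1.26), and CDKN1A, which p53 induces, was at 0.89 (0.71 to 1.11). In the positive members DDIT3 and CDKN1A stood at 1.37 and 1.40, and in the negative members over the other kept cells at 2.29 (1.22 to 3.94) and 3.05 (1.80 to 4.84). These last ratios rest on 13 and 18 UMIs, with both genes below 20 CPM in either group.

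At the low end of the ranking over all measured genes were LRP1B, a receptor that spans 1900 kb (26.7 and 421 CPM, 0.064), CDH13, a cadherin that spans 1174 kb (5.35 and 124 CPM, 0.043), and ERBB4, a receptor tyrosine kinase that spans 1163 kb (9.63 and 183 CPM, 0.053). HAPLN1, a matrix link protein, had 1 UMI in the members and a ratio of 0.018 (0.00046 to 0.10). The high end included the histone genes HIST1H2AH (33.2 and 7.52 CPM, 4.41) and HIST1H3G (31.6 and 9.12 CPM, 3.46), and UBE2C, which marks mitotic proteins for removal (422 and 144 CPM, 2.92). On the list of genes of dividing cells, to which UBE2C belongs, 8 of 10 were above 1 and 2 at least 2-fold higher, against 1.64% of all genes, with a summed ratio of 1.39 (1.35 to 1.44). CENPF and MKI67 were the 2 below 1, at 0.62 and 0.71. In the positive members the list stood at 0.889, with 6 of 10 above 1, and in the negative members over the other kept cells at 1.41.

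Depth differed between the groups, and its part in these ratios was not tested. Thinning keeps each cell's expected shares, and so bears only on how UMIs are weighted over cells. After thinning to 5000 UMIs, which left out 13 members and 1 comparison cell, the nuclear, secreted, cytosolic, ribosomal and respiratory chain ratios were 0.615, 0.369, 1.42, 1.73 and 1.63. Against the 81 comparison cells with no more than 22626 UMIs, which were still deeper than the members (median 18484 against 9536), they were 0.581, 0.391, 1.52, 1.53 and 1.43. These 81 cells also had lower levels of the markers than all 1497, since S100A10 passed from 1.09 to 6.05 and FTL from 1.35 to 2.49. Depth and cell kind could not be told apart in these values.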

How the data were processed

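The deposited values were raw counts of UMIs per gene and barcode from 1 library (Chromium Next GEM 3' HT v3.1). The authors made them with Cell Ranger 7.0.1 at default parameters on GRCh38. They were used as deposited, and no normalization had been applied to them. The labels state 10000 targeted cells per well, and wells could not be told apart. Work used Python 3.11.15, scanpy 1.11.5, leidenalg 0.10.2 and scipy 1.17.1.

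Cells are not replicates, so no test was made. Groups were summed, levels carry exact Poisson and ratios exact conditional 95% intervals, and shares carry exact binomial (Clopper-Pearson) intervals, or for a count of 0 the limit of 3 counts. The ratios and their intervals were also run on simulated pooled counts. These held no differences between the cells of a group, so they do not bear on such differences. Counts of genes used a level of at least 20 CPM, with MT- genes left out. Named genes were those of the gene lists and the 15 highest and 15 lowest ratios, without the rule genes, and not all were printed. Members, lists and limits were chosen with earlier results of these data known. The ranges of gene length, the codon runs and the comparison of rule-gene-negative members with the other kept cells were added while exploring these data. Codon limits of 6 and 12 were looked at first on the same lists, and 7 and 13 were then taken. The neighbour graph used 2000 variable genes, 30 components and Leiden resolution 0.5. Scrublet marked 1 of 14726 barcodes, so its call was not usable and doublets stayed in. Gene lengths came from GENCODE version 44 and were found for 7512 of 7520 measured genes. Some listed noncoding RNAs were not analysed here. Alternatives are given in the closing section.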

Additional observations from a re-analysis of the deposited data

Results flagged for a closer look

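Outside the range of detected genes, 133 of the 520 barcodes with fewer than 2000 genes (25.6%, 21.9 to 29.6%) also had less than 1% of their UMIs from MT- genes. This was noticed because these barcodes were not used in any comparison of the report. They had a median of 1021 UMIs and 765 genes, and 34 of them had at least 5 rule-gene UMIs per 10000. Of the 94 barcodes with more than 10000 genes, 0 were below 1%, which allows a share of up to 3.19% (3 counts of the 94).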

How the results depend on the processing

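The main values were a share of members of 1.28%, ratios to the comparison cells of 0.197 (median UMIs), 0.626 (nuclear RNA), 0.363 (secreted), 1.73 (ribosomal), 1.40 (cytosolic) and 1.65 (respiratory chain), and 123 genes at least 2-fold higher and 1508 at least 2-fold lower. The direction of these 5 class ratios held under all alternatives relative to all UMIs, and only the count per cell turned some round; the causes of the moves were not tested.

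Setting the mitochondrial limit to 0.005 gave a share of 1.05% and ratios of 0.616, 0.341, 1.80, 1.47 and 1.70 for nuclear, secreted, ribosomal, cytosolic and respiratory chain RNA. With a limit of 0.02 these were 1.56% and 0.749, 0.519, 1.51, 1.22 and 1.42, with 563 genes 2-fold lower, and S100A10, S100A11 and S100A6 turned to 0.900, 0.917 and 0.932, while NEAT1 and HSPA5 moved from 0.069 and 0.18 to 0.244 and 0.399. Comparison cells at 10 or more gave 0.184 for median UMIs, 0.614 nuclear, 0.349 secreted, 1.74 ribosomal and 1.37 cytosolic, and S100A10 turned to 0.968. The rule-gene-positive members alone (0.591% of barcodes) gave 0.675, 0.408, 1.77, 1.65 and 1.66, with 70 genes 2-fold higher. No upper gene limit gave 1.74 for ribosomal genes, and without the highest 8% of Scrublet scores the cytosolic ratio was 1.38. CPM over genes other than MT- gave 0.595, 0.345, 1.65, 1.33 and 1.56, with 81 genes 2-fold higher. The mean of single-cell CPM gave 0.653 nuclear, 1.69 ribosomal, 1.38 cytosolic and 1.60 respiratory chain, and thinning to 5000 UMIs gave 0.615 nuclear, 1.42 cytosolic and 1.63 respiratory chain. Without MALAT1 the nuclear ratio was 0.131. With a level of at least 5 CPM 332 genes were 2-fold higher and 2319 lower, and with no limit 2103 and 3016, since low genes then enter on few UMIs.

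A scaling, a choice of cells and the codon limits looked at first were added after seeing the data. Per cell, the ratios were 0.122 nuclear, 0.0708 secreted, 0.339 ribosomal, 0.273 cytosolic and 0.321 respiratory chain, with 0 genes 2-fold higher and 7496 lower. S100A10, S100A11, S100A6, MT2A, FTL, TMSB4X and SEC61B then stood at 0.212, 0.227, 0.237, 0.426, 0.264, 0.258 and 0.262. Against comparison cells no deeper than the deepest member, median UMIs gave 0.516 and the classes 0.581, 0.391, 1.53, 1.52 and 1.43, with 248 genes 2-fold higher, S100A10, S100A11, S100A6, MT2A and FTL at 6.05, 2.26, 2.95, 5.15 and 2.49, and NEAT1 at 0.144. At the first codon limits, the median ratio of genes with a run passed from 0.52 to 0.62, from 0.77 to 1.01 up to 20 kb, which turned its direction, and from 0.42 to 0.50 above 50 kb, since genes with weaker runs then enter. For a run only in the last 35 codons it passed from 1.10 to 1.07, from 1.50 to 1.50 up to 20 kb (18 and 28 genes) and from 0.79 to 0.79 above 50 kb. No paired analysis was possible because there was 1 library.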

Other observations

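Further gene groups of the members, as shares of UMIs over the comparison cells, were as follows. Where negative members are set over the other kept cells, the ratios can again carry a difference in cell kind. Of 6 measured noncoding RNAs listed as cytoplasmic, 5 were above 1 and none was 2-fold higher or lower, against 1.64% higher and 20.1% lower among all genes, with a summed ratio of 1.41 (1.34 to 1.48). ZFAS1, a host of small nucleolar RNAs, stood at 510 and 323 CPM, a ratio of 1.58, and NORAD, which binds Pumilio proteins, at 0.83 (0.67 to 1.01). Annexins and further S100 genes had a summed ratio of 1.02 (0.982 to 1.06) in all members and 1.47 in the positive members, and 2.17 in the negative members over the other kept cells. S100A13 was at 198 and 121 CPM, a ratio of 1.63 (1.47 to 1.81).

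Genes of iron handling and of the oxidative stress factor NRF2, ferritin not among them, had a summed ratio of 0.737 (0.698 to 0.777) in all members, of 0.979 (0.916 to 1.05) in the positive members and of 1.46 in the negative members over the other kept cells. SLC7A11, the cystine transporter, stood at 29.4 and 138 CPM, a ratio of 0.21 (0.16 to 0.28), TFRC, the transferrin receptor, at 0.46 (0.33 to 0.61), both membrane proteins, and NQO1, a cytosolic quinone reductase, at 1.04 (0.95 to 1.14), and at 3.37 in the negative members over the other kept cells. Immediate early genes had a summed ratio of 0.669 (0.632 to 0.707), with IER3 at 426 and 700 CPM, and stood at 2.08 in the negative members over the other kept cells. Genes of mitophagy, the removal of mitochondria, had 0 of 8 measured members past 2-fold in either direction, against 20.1% lower and 1.64% higher among all genes, and a summed ratio of 1.14 (1.08 to 1.19). In the positive members it was 1.33, with 1 of 8 genes at least 2-fold higher, against 0.942% of all genes. In the negative members over the other kept cells it was 1.44, with 1 of 7 at least 2-fold higher, against 2.46%. BNIP3, a mitophagy receptor with its membrane anchor near its end, was at 69.5 and 42.7 CPM, a ratio of 1.63 (1.35 to 1.94).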
